A study of Mus musculus with 14 samples.

Results

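The NMDA receptor subunits are a family of 7 mouse genes, Grin1, Grin2a, Grin2b, Grin2c, Grin2d, Grin3a and Grin3b, and their RNA was followed here in the hippocampus of young mice. They were taken by symbol, with no use of their values, from 18789 genes that had a value in any library. All 7 were among the 16613 genes listed in at least 3 libraries and tested. The data were 14 RNA sequencing libraries from C57BL6 mice aged 30 days. The mice were KMT2D+/+ (wild type) or KMT2D+/bGeo, which carries 1 modified copy of Kmt2d, a histone H3K4 methyltransferase. Dosing by gavage began at 2 weeks of age and went on for 2 weeks, with either methylcellulose alone as the vehicle or TAK-418 at 1 mg/kg/day. TAK-418 inhibits LSD1, a demethylase of histone H3. There were 3 vehicle wild types, 3 vehicle mutants, 5 treated wild types and 3 treated mutants. The design text of the series gives fewer mice per group than those 5, and the difference was not resolved. Nothing in the labels says that each library is a separate animal, so p-values measure the spread between these libraries. The title numbers run in 1 block for the treated libraries and in another for the vehicle libraries, so a batch along those blocks cannot be told apart from the drug.

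NMDA receptors are tetrameric ion channels at excitatory synapses that open when glutamate and the coagonist glycine or D-serine bind while the membrane is depolarised. Grin1 encodes GluN1, the subunit that binds the coagonist and is needed in every NMDA receptor, whereas the Grin2 genes encode the glutamate-binding GluN2A to GluN2D. In the forebrain GluN2B prevails early and GluN2A rises as animals mature. GluN3A and GluN3B, encoded by Grin3a and Grin3b, also bind glycine and lower calcium permeability, and GluN3A is the juvenile form. Levels below are abundances per transcript length on the scale of FPKM (fragments normalised for transcript length and library size), summed over the assembled transcripts of a gene and scaled between libraries. A value of 0 means that the assembly held no transcript of the gene.

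The relative depth, read from the spacing of low values, was 35.1 to 59.98 M fragments in 13 libraries and 168 M in treated wild type replicate 1. Of the 12 markers of hippocampal neurons, 11 were listed in every library, with Nrgn (neurogranin) at a median of 1203. Nrgn was at 227 in treated wild type replicate 2 and at 1140 to 1523 in every other library. That replicate also had the lowest summed level of this list, but Nrgn is the largest part of that sum. No other marker of the list was at its lowest there. Neurod2 at 92.1, Prox1 at 43.3 and Dsp at 17.1 were at their highest of all libraries. Summed marker levels over all libraries ranged from 1000 to 2410 for the hippocampal neuron list, 783 to 1106 for interneurons (most abundant Cck), 1010 to 1519 for astrocytes (Aldoc), 3320 to 5484 for oligodendrocytes (Mbp), 37.7 to 44.3 for thalamus (Prkcd), 30.0 to 41.2 for cerebellar granule cells (Neurod1) and 309 to 1001 for blood (Hba-a1). The cerebellar markers Gabra6 and Barhl1 were listed at 0 in all 14 libraries. Ttr, the main choroid plexus marker, had a median of 33.0 but reached 6369 in vehicle wild type replicate 3 and 4907 in vehicle mutant replicate 1. It was also at 884 in vehicle mutant replicate 3 and 590 in treated mutant replicate 1, against 6.48 to 36.2 in the remaining libraries. Xist was listed above a fixed threshold in 6 libraries spread over all groups, so both sexes were present. Kmt2d measured 13.99 ± 0.231 (SD, n = 3) in vehicle wild types, 11.9 ± 2.14 (SD, n = 3) in vehicle mutants, 15.2 ± 2.37 (SD, n = 5) in treated wild types and 12.4 ± 2.73 (SD, n = 3) in treated mutants. Kdm1a, which encodes LSD1, lay between 32.7 and 34.6 in the means of the 4 groups. In bulk tissue, fewer cells of a type and less RNA per cell cannot be told apart.

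Grin1 was by far the most abundant of the 7 genes, and no subunit gene differed between groups past the test. The authors' deposited tables, which hold 1 value per group with no spread, list Grin1 at 149 to 160.2 FPKM, Grin2b at 24.5 to 26.3, Grin2c at 12.1 to 13.3, Grin2d at 6.24 to 9.10 and Grin3b at 0.276 to 0.330. Grin2a has 2 loci in the authors' deposited tables, at 7.36 to 8.43 and at 32.9 to 33.8. Grin3a also has 2 loci in the authors' deposited tables, at 7.85 to 8.59 and at 0.437 to 0.661. By its locus number, the stronger Grin2a locus and the weaker Grin3a locus stand among genes of the opposite strand. None of the member loci (0 of 9) was called in any of the authors' 4 deposited tables at a q-value of 0.05. The share of all tested loci called in the authors' deposited tables was 0.224% for vehicle mutants against vehicle wild types, 0.324% for treated mutants against vehicle wild types, 0.218% for treated mutants against treated wild types and 0.611% for vehicle mutants against treated wild types.

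**Figure D1:**
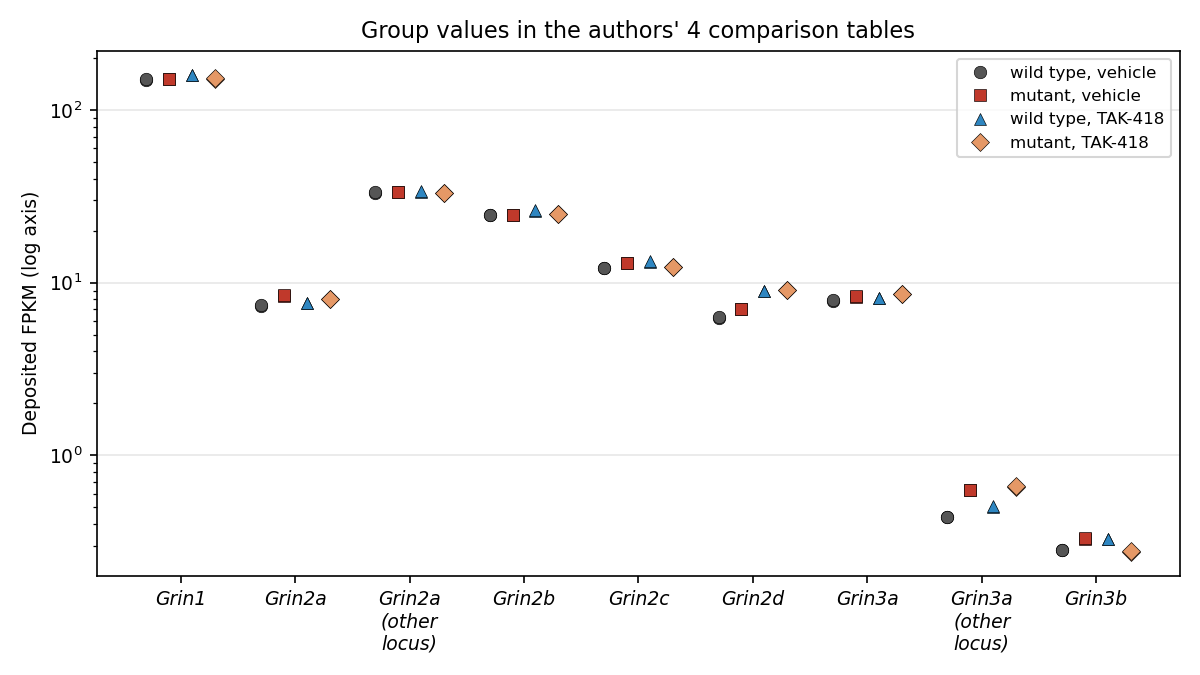
FPKM of each member's locus in the authors' 4 deposited comparison tables (log axis), by group, with the value from each table that holds the group. Grin1 lies between 149 and 160.2 in every group, and Grin2d has the widest spread between groups of the loci on their own strand, from 6.24 to 9.10.

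Grin1 lies at chr2:25291181-25319187 of GRCm38 (mm10), minus strand, and its reference transcript has 21 exons and a coding length of 2877 bases for 959 residues. Its level varied little between libraries except in 1. For replicates 1 to 3 the summed abundance of vehicle wild types was 183, 189.96 and 203, and that of vehicle mutants 182, 179.6 and 185. In treated wild types replicates 1 to 5 gave 389.7, 194, 219, 201 and 195, and the treated mutants gave 185, 209 and 228. Treated wild type replicate 1, the deepest library, stood far above the others. There no assembled transcript held more than 10 of the 20 reference introns, against 18 or 19 in every other library, and the abundances of its partial transcripts were added up.

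A value that is not raised by such splitting is the median, over the introns of the reference transcript, of the summed abundance of transcripts that contain each intron. On this intron-based scale, a measure added after the data were examined, that library fell in the range of the others. Vehicle wild types then averaged 181 ± 11.7 (SD, n = 3) for Grin1, vehicle mutants 179 ± 5.07 (SD, n = 3), treated wild types 191 ± 17.3 (SD, n = 5) and treated mutants 188 ± 3.87 (SD, n = 3). The contrast with the smallest unadjusted p was the drug effect in wild types, at a log2 difference of 0.26 ± 0.19 (SE) in the summed values, with a limma adjusted p of 0.735. Without treated wild type replicate 1 it was 0.07, and on the intron-based scale 0.08 ± 0.067 (SE) with an adjusted p of 0.742 by limma. The groups overlapped on both scales.

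GluN1 comes in splice forms, and 2 cassette exons of Grin1 could be measured in all 14 libraries. The N1 exon (chr2:25311343-25311405, exon 4 of the reference transcript) encodes 21 residues of the extracellular amino-terminal domain and is known to lessen inhibition of the receptor by protons. The C1 exon (chr2:25294438-25294548, exon 20) encodes 37 residues of the intracellular tail and is known for an endoplasmic reticulum retention signal and phosphorylation sites. Both are coding and keep the reading frame. Their sequences, from the GENCODE transcript on the minus strand, are shown because the shares below count transcripts that join these junctions. The exon is in capitals and 15 bases of each neighbouring exon are in lower case, 5′ to 3′.
N1 exon: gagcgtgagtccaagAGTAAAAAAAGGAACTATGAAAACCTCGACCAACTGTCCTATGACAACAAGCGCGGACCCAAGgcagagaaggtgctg
C1 exon: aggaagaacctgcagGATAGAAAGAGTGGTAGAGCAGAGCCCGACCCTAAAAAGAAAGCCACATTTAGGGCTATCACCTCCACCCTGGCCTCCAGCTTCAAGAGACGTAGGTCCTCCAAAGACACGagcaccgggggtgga

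Most of the Grin1 abundance that could be read for the N1 exon skipped it, and no single contrast of its share passed the test. The share is the abundance of transcripts with both introns flanking the exon, divided by that plus the abundance of transcripts with the intron that skips it. It was 16.8%, 14.8% and 14.02% in vehicle wild type replicates 1 to 3, and 9.72%, 9.57% and 11.5% in vehicle mutants. Treated wild types gave 8.44%, 7.22%, 8.78%, 14.1% and 13.0% in replicates 1 to 5, and treated mutants gave 16.4%, 14.2% and 12.97%. Vehicle mutants lay below both vehicle wild types and treated mutants without overlap. Treated wild types fell into a lower set of 3 libraries and a higher set of 2, and the higher set reached 14.1%, above the lowest vehicle wild type.

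The group means of the N1 share were 15.2% ± 1.46 (SD, n = 3) in vehicle wild types, 10.3% ± 1.10 (SD, n = 3) in vehicle mutants, 10.3% ± 3.04 (SD, n = 5) in treated wild types and 14.5% ± 1.72 (SD, n = 3) in treated mutants. The mutant minus wild type difference was -4.94 percentage points under vehicle (exact two-sided permutation p = 0.1), the smallest p that 3 against 3 libraries allow. The drug difference was 4.25 points in mutants (exact p = 0.1) and -4.91 points in wild types (exact p = 0.0536), where 3 against 5 libraries can reach 0.0179. Mutants exceeded wild types by 4.21 points under TAK-418 (exact p = 0.0714), and the treated mutants were -0.70 points from vehicle wild types (exact p = 0.6). After Benjamini-Hochberg adjustment over the 2 exons and 5 contrasts the first 4 values were each 0.25 and the last 0.667, so no single contrast passed. The abundance with the exon was 28.7 to 30.3 in vehicle wild types, 15.01 to 21.7 in vehicle mutants, 14.2 to 29.6 in treated wild types and 24.7 to 30.1 in treated mutants. The abundance that skips it was 139 to 209.9 over all libraries. In treated wild type replicate 1 the abundances with and without the exon were 14.2 and 154, of 380 listed for Grin1 in all.

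The difference between the 2 drug effects, mutants minus wild types, was 9.15 percentage points. An exact test that permuted treatment labels within each genotype gave p = 0.00357, or 0.0143 adjusted over 4 measures tested in this way. That test was chosen after the shares had been seen, so it describes the pattern and is no independent evidence for it. The adjustment over 4 measures does not cover that choice. The permutations assume no drug effect in either genotype, so a small p does not by itself show that the 2 drug effects differ. With any 1 library left out the difference was 8.22 to 10.1 points and the exact p 0.00286 to 0.0119, from the same shares and with the same limits. The shares rest on the assembler's estimates for whole transcripts, with no reads per junction, so no counting interval can be given.

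**Figure D2:**
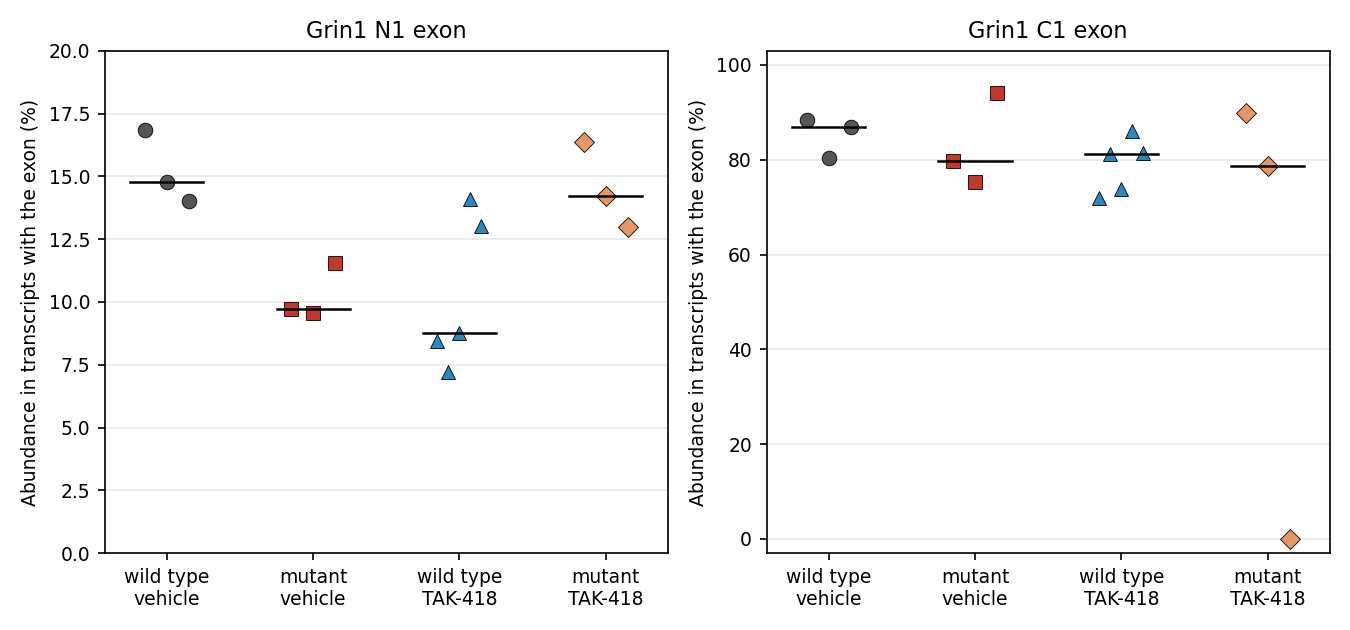
Abundance (%) in Grin1 transcripts that contain the N1 exon (left) or the C1 exon (right), out of that plus the abundance that skips the exon. Each point is 1 library, by group, with a line at the group median. The 3 vehicle mutants lie at 9.57% to 11.5% for N1, below the 14.02% to 16.8% of vehicle wild types and the 12.97% to 16.4% of treated mutants, and 1 treated mutant is at 0 for C1, where no transcript held both flanking introns although partial transcripts held 1 of them.

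In 13 of 14 libraries most of the Grin1 abundance that could be read for the C1 exon was in transcripts with it. Its share did not separate the groups. The share was 88.3%, 80.4% and 87.0% in vehicle wild types, 79.8%, 75.3% and 94.1% in mutants on vehicle, 71.9%, 81.3%, 73.8%, 86.0% and 81.4% in treated wild types and 89.9%, 78.7% and 0% in treated mutants. In treated wild type replicate 1 the abundances with and without the exon were 146 and 57.0, of 380 listed for Grin1 in all. In treated mutant replicate 3 no transcript held both introns that flank the exon, and 181 was listed for the skipping form. There, 2 partial transcripts held 1 of the flanking introns each, with 28.5 in all, so the 0% is not an absence of the exon. When either intron counted, the share of that library was 13.6%, and those of the other 13 were 73.2% to 94.1%. The 5 contrasts gave adjusted exact permutation p-values of 0.321 to 0.8. Without that library the drug difference in mutants went from -26.9 to 1.203 points and the genotype difference under TAK-418 from -22.7 to 5.38 points. The last exon has 2 acceptors 356 bases apart, the upstream one giving the C2 tail and the downstream one the C2′ tail that ends in a PDZ-binding motif. The upstream acceptor held 70.7% to 88.3% in vehicle wild types, 65.7% to 100% in vehicle mutants, 64.6% to 76.5% in treated wild types and 58.4% to 100% in treated mutants. All 4 ranges overlapped. The 3 highest values, 88.3% in vehicle wild type replicate 1 and 100% in vehicle mutant replicate 3 and treated mutant replicate 1, came from the 3 libraries whose multi-exon transcripts held 35.0% of the annotated last exon, against 87.3% to 95.2% in the other 11, and the part of this in the result was not tested. This last measure was added after the data were examined and was not tested.

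Grin2b (chr6:135713233-136173511, minus strand) encodes GluN2B, the subunit that prevails in early life and gives slow currents. Its summed abundance varied more between libraries than between groups. It was 32.3, 30.3 and 3.97 in vehicle wild types, 32.2, 6.11 and 109 in mutants on vehicle, 38.9, 39.7, 7.27, 35.8 and 7.12 in treated wild types, and 35.2, 5.83 and 6.76 in treated mutants. Every group held high and low libraries.

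The high and low Grin2b libraries differed in how the end of the gene was assembled. The annotated last exon of Grin2b is 20716 bases long. In 7 libraries the multi-exon transcripts held 91.4% to 97.8% of it, and their abundance as deposited was 26.8 to 42.2. In the other 7 they held 0% to 23.7% of it, and their abundance was 4.03 to 5.84. The joined form was found in 2 of 3 vehicle wild types, 1 of 3 vehicle mutants, 3 of 5 treated wild types and 1 of 3 treated mutants. In 5 of the unjoined libraries a further part of the exon was a separate single-exon transcript, listed at 107 in vehicle mutant replicate 3 and at 1.53 to 2.17 in the other 4. Within the joined form the intron-based value was 26.2 to 39.4, and within the unjoined form it was 3.95 to 5.82. The authors' deposited tables, made for all libraries over common loci, list Grin2b within 24.5 to 26.3 FPKM in all groups.

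**Figure D3:**
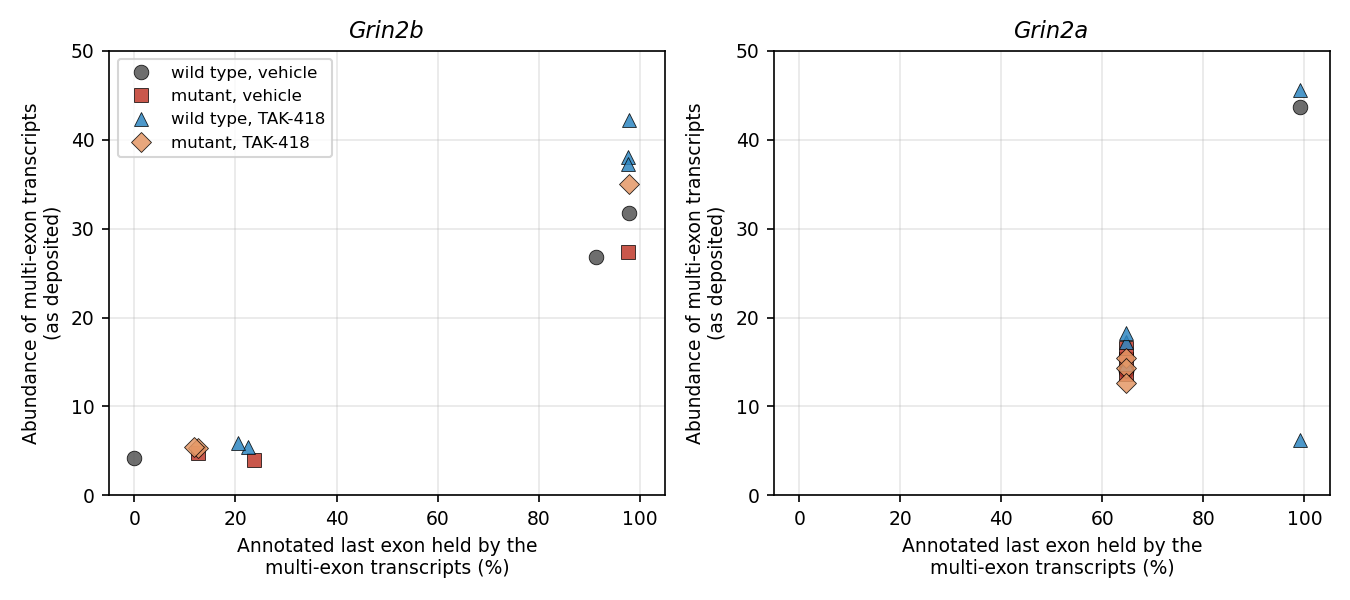
Abundance of multi-exon transcripts, as deposited, against the share of the annotated last exon that they hold (%), for Grin2b (left) and Grin2a (right), 1 point per library. Grin2b splits into 7 libraries at 26.8 to 42.2 with over 91% of the exon and 7 libraries at 4.03 to 5.84 with under 24%, and both sets hold libraries of all 4 groups.

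Grin2a (chr16:9567898-9995560, minus strand) encodes GluN2A, the subunit of mature synapses with faster currents, and its last exon is 11729 bases long. Its summed abundance was 17.4, 16.7 and 41.1 in vehicle wild types, 19.1, 17.9 and 19.4 in mutants on vehicle, 6.34, 43.0, 17.0, 138 and 19.999 in treated wild types, and 18.5, 18.8 and 15.3 in treated mutants. Leaving 4 libraries aside, the values lay between 15.3 and 19.999. Those 4 libraries differed in the assembly of the last exon, as in Grin2b, or in the abundance listed for a piece of it. In vehicle wild type replicate 3 and treated wild type replicate 2 the multi-exon transcript held 99.1% of the exon and was listed at 43.7 and 45.6. In treated wild type replicate 1 it also held 99.1%, at 5.85, and a transcript on the opposite strand covered 9680 bases of the same exon at 56.2. In treated wild type replicate 4 the multi-exon transcript held 64.7% of the exon, and a separate single-exon piece of 3748 bases was listed at 126. The remaining 10 libraries also held 64.7% of the exon, with a separate piece at 2.53 to 3.16. Without a stated strand-specific protocol, reads from Grin2a and from an antisense transcript cannot be told apart.

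The ratio of Grin2b to Grin2a, which follows the developmental change from GluN2B to GluN2A, could not be resolved between groups. On the log2 scale it ran from -3.37 to 2.62 over the 14 libraries, with a median of -0.65. The means were -0.54 ± 2.45 (SD, n = 3) in vehicle wild types, 0.56 ± 2.03 (SD, n = 3) in vehicle mutants, -0.43 ± 1.83 (SD, n = 5) in treated wild types and -0.65 ± 1.39 (SD, n = 3) in treated mutants. All 5 adjusted exact permutation p-values were 1.0, and on the intron-based scale they were 0.9. The sign of the genotype difference under vehicle changed from 1.11 to -0.49 between the 2 scales. In the limma fit the smallest unadjusted p of Grin2a belonged to the genotype difference under TAK-418, at a log2 value of -0.59 ± 0.71 (SE), and that of Grin2b to the drug difference in mutants, at -1.26 ± 1.14 (SE), with adjusted p-values of 0.934 and 1.0. The Grin2b difference became 0.24 on the intron-based scale.

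Grin2c (chr11:115249169-115267243, minus strand) encodes GluN2C, known mainly from cerebellar granule cells and from astrocytes and some interneurons of the forebrain. Its summed abundance was 16.4, 18.1 and 14.5 in wild types on vehicle, and 16.0, 17.1 and 16.7 in mutants on vehicle. Treated wild types gave 17.5, 18.6, 17.0, 17.6 and 20.3, and treated mutants 16.3, 12.9 and 14.2. The highest treated mutant, at 16.3, was under the lowest treated wild type, at 17.0. Of all genes tested, 2.38% had treated mutants below treated wild types without overlap, and Grin2c was the 1 member to do so. In the opposite direction, where 2.19% of genes separated, 0 members did. The other 4 contrasts between 2 groups also held 0 members without overlap. Of all genes, 4.41% were higher and 4.5% lower without overlap for genotype under vehicle, 4.48% higher and 3.65% lower for the drug in mutants, 3.92% higher and 2.37% lower for the drug in wild types, and 5.52% higher and 4.0% lower in treated mutants against vehicle wild types.

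The mean of Grin2c was 16.3 ± 1.80 (SD, n = 3) for vehicle wild types and 16.6 ± 0.530 (SD, n = 3) for vehicle mutants. It was 18.2 ± 1.29 (SD, n = 5) for treated wild types and 14.5 ± 1.70 (SD, n = 3) for treated mutants. The difference of treated mutants from treated wild types was a log2 value of -0.32 ± 0.084 (SE), with an unadjusted p of 0.00278 and an adjusted p of 0.846 by limma over all genes, so it did not pass. Without scaling the difference was -0.40 with an adjusted p of 0.777 by limma. On the intron-based scale it was -0.21 ± 0.065 (SE), and treated mutants at 16.3, 12.9 and 14.2 overlapped treated wild types, whose lowest value was 16.01. On that scale 0 members separated in any of the 5 contrasts. The shares of all genes higher and lower without overlap were then 4.63% and 4.48% for genotype under vehicle, 4.89% and 3.78% for the drug in mutants, 4.04% and 2.53% for the drug in wild types, 2.46% and 2.5% for genotype under TAK-418, and 5.38% and 3.96% for treated mutants compared with wild types on vehicle. For Grin2c the authors' deposited table lists 12.3 in treated mutants and 13.3 in treated wild types, with a q-value of 0.808. Of the 7 cerebellar granule cell markers, Gabra6 and Barhl1 were at 0 in all libraries, Neurod1 was at 20.4 to 26.6, Zic1 at 2.84 to 5.45, Zic2 at 3.36 to 7.58, Cbln1 at 0.987 to 2.26 and Cbln3 at 0 to 6.06. The cerebellar list summed to 33.5 to 39.9 in treated wild types and 33.1 to 36.8 in treated mutants. The interneuron list summed to 783 to 985 and 989 to 1080, and the astrocyte list to 1010 to 1519 and 1234 to 1481, in the same 2 groups. The lowest astrocyte sum is that of treated wild type replicate 1, where Aldoc was listed at 0. In the interneuron list Cck, the most abundant, was at 130 to 437 in treated wild types and 401 to 451 in treated mutants. Gad1 was at 120 to 130 and 129 to 132, and Gad2 at 40.3 to 45.0 and 43.6 to 45.5, so these overlapped. Slc32a1, Sst, Pvalb, Vip and Npy overlapped as well. Lhx6 was higher in treated mutants without overlap, at 7.35 to 8.29 and 8.30 to 8.99, as 2.19% of all genes were. The summed interneuron list did not overlap either. The part of these lists in the Grin2c values was not tested.

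Grin2d (chr7:45831883-45878378, minus strand) encodes GluN2D, known from interneurons. Its summed abundance was 3.43, 6.33 and 4.62 in vehicle wild types, 5.09, 3.91 and 5.02 in mutants on vehicle, 5.51, 4.48, 4.11, 4.34 and 4.32 in treated wild types, and 4.86, 4.72 and 4.56 in treated mutants. The treated mutants lay within the range of every other group. In the limma fit its smallest unadjusted p was for the genotype difference under TAK-418, at a log2 difference of 0.05 ± 0.15 (SE) and an adjusted p of 0.979, and the sign turned to -0.03 without scaling. The authors' deposited table for treated mutants against vehicle wild types lists Grin2d at 9.10 and 6.28 FPKM, a log2 fold change of 0.53 with a p of 0.0217 and a q-value of 0.660. In the library values the same difference was 0.01 ± 0.16 (SE), and 0.21 ± 0.11 (SE) on the intron-based scale, with adjusted limma p-values of 1.0 and 0.912. The 5′ end of its assembled transcripts lay at -5513 to -3233 relative to the RefSeq start (GRCm38.p6, negative values upstream) in the 14 libraries, compared with 18 to 61 bases downstream of it for Grin2c and 109 to 153 bases downstream for Grin1.

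Grin3a (chr4:49661611-49845744, minus strand) encodes the juvenile subunit GluN3A and was listed in every library. Its summed abundance was 8.999, 10.2 and 8.58 in vehicle wild types, 8.59, 9.88 and 10.3 in mutants on vehicle, 9.77, 9.13, 9.03, 12.2 and 9.61 in treated wild types, and 9.42, 11.0 and 9.93 in treated mutants. The groups overlapped, and the highest value came from treated wild type replicate 4. The smallest unadjusted p in limma was for treated mutants against vehicle wild types, a log2 difference of 0.12 ± 0.11 (SE) whose adjusted p was 0.995. The log2 ratio of Grin3a to Grin1 averaged -4.38 ± 0.179 (SD, n = 3) for vehicle wild types, -4.25 ± 0.133 (SD, n = 3) for vehicle mutants, -4.54 ± 0.477 (SD, n = 5) for treated wild types and -4.35 ± 0.145 (SD, n = 3) for treated mutants. Its 5 contrasts had adjusted exact permutation p-values of 0.8. The lowest ratio, -5.32 in treated wild type replicate 1, was -4.14 on the intron-based scale.

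Grin3b (chr10:79970715-79977190, plus strand), known mainly from motor neurons, was near the limit of assembly. Its summed abundance was 0.926, 0.932 and 0.373 in vehicle wild types, 1.44, 0.508 and 0.787 in mutants on vehicle, 0.226, 1.25, 0, 0.183 and 0.751 in treated wild types, and 0.860, 0.445 and 0 in treated mutants. It was listed at 0 in 1 treated wild type and 1 treated mutant. In each library at most 4 of its 8 reference introns were assembled, and the 5′ end lay 2024 to 5398 bases inside the RefSeq start in the 12 libraries that listed it. Its smallest unadjusted p in limma was for the drug difference in mutants, a log2 difference of -0.47 ± 0.35 (SE) whose adjusted p was 1.0, and the values are too close to the pseudocount of 0.873 for a fold change to be read from them.

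**Figure D4:**
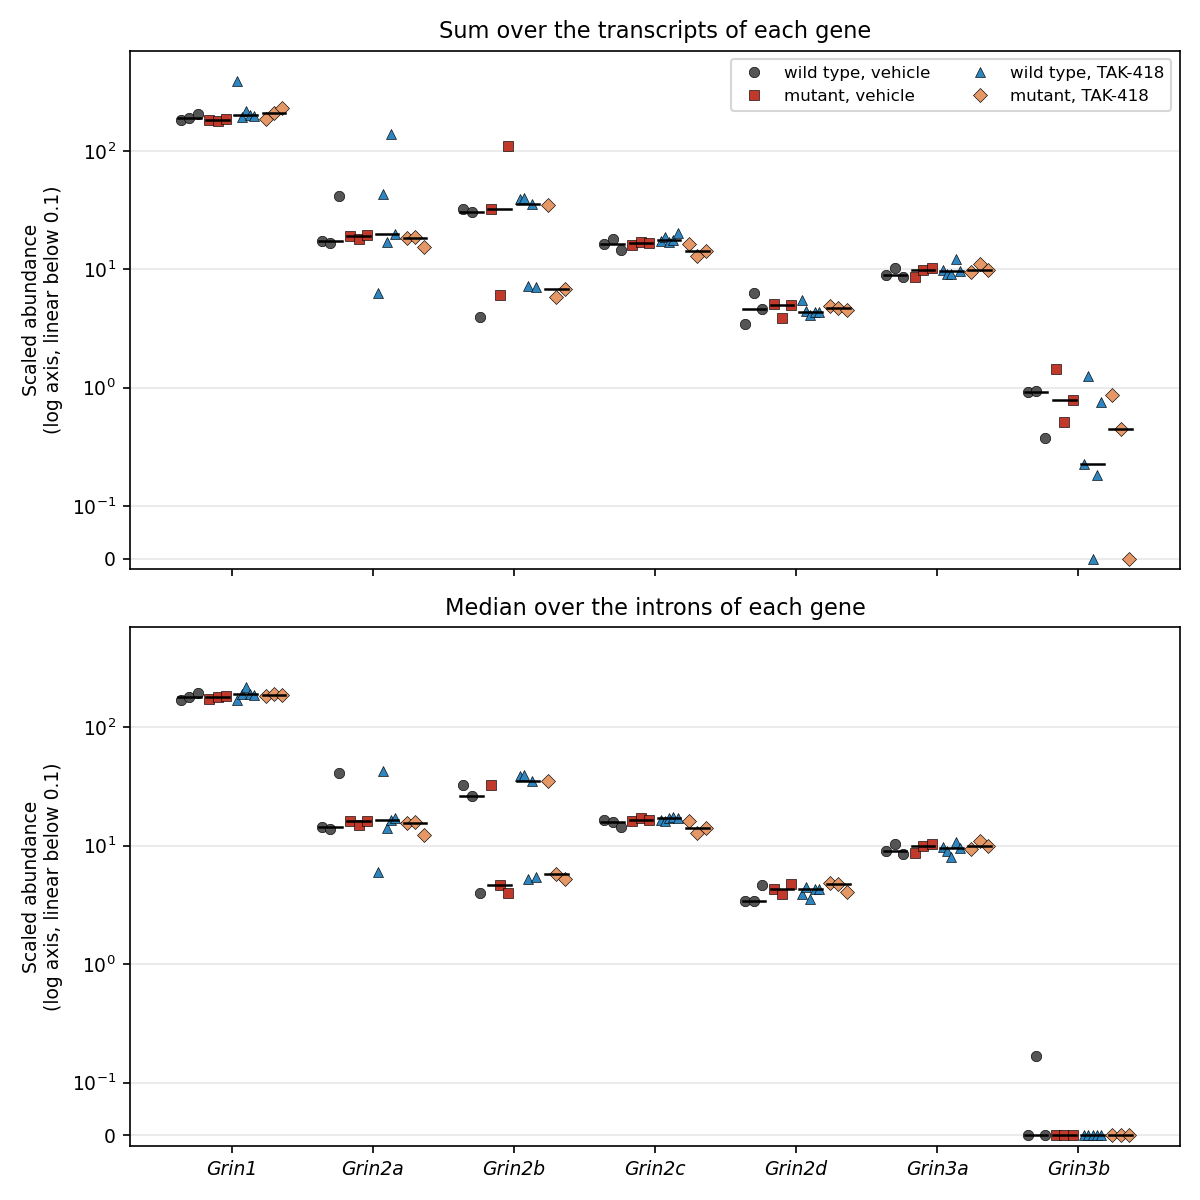
Scaled abundance of the 7 members in each of the 14 libraries, as the sum over transcripts (top) and the median over introns (bottom), on a log axis that is linear below 0.1, with a line at each group median. Grin1 lies above all others, Grin2b and Grin2a spread over libraries within groups, and Grin3b is lowest.

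The order of the subunit genes was clear at its ends and not in the middle. By median intron-based abundance it was Grin1 at 185, Grin2c at 16.4, Grin2b at 15.99, Grin2a at 15.7, Grin3a at 9.62, Grin2d at 4.30 and Grin3b at 0. Grin1 exceeded the next gene in 14 of 14 libraries, Grin3a exceeded Grin2d in 14 of 14 and Grin2d exceeded Grin3b in 14 of 14, with no overlap of their ranges. Grin2c exceeded Grin2b in 7 of 14 libraries and Grin2b exceeded Grin2a in 6 of 14, so these neighbours did not differ beyond their spread. Grin2a exceeded Grin3a in 13 of 14 libraries, with overlapping ranges. By the summed values the median order was Grin1 at 194, Grin2b at 31.2, Grin2a at 18.7, Grin2c at 16.8, Grin3a at 9.69, Grin2d at 4.59 and Grin3b at 0.630. Between the GluN2 genes the position of Grin2b therefore changed with the scale. Its intron-based median lay in a gap, since the unjoined libraries were at 3.95 to 5.82 and the joined ones at 26.2 to 39.4. In the authors' deposited tables Grin2b, at 24.5 to 26.3 FPKM, stood above Grin2c, at 12.1 to 13.3, in every group.

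Across the 6 contrasts limma called 0 of the 7 members, and the share of all genes called at an adjusted p of 0.05 was 0.0% for genotype under vehicle, 0.00602% for the drug in mutants, 0.0% for the drug in wild types, 0.012% for genotype under TAK-418, 0.00602% for treated mutants against vehicle wild types and 0.00602% for the interaction. At an unadjusted p of 0.05, Grin2c was the 1 member past the threshold for genotype under TAK-418, where 4.93% of genes were. It was also the 1 member past it for the interaction with an unadjusted p of 0.0187 and an adjusted p of 0.977 by limma, where 4.42% of genes were. In the other 4 contrasts 0 members were past it in the summed values, against 5.5%, 4.36%, 8.4% and 5.39% of genes. On the intron-based scale Grin2c was also past it for the drug in mutants, at -0.19 ± 0.073 (SE) with an unadjusted p of 0.0218 and an adjusted p of 1.0 by limma. Of all genes on that scale, 4.64% were past it in that contrast. The standard errors in the genotype difference under TAK-418 were 0.084 for Grin2c, 0.098 for Grin3a, 0.15 for Grin2d and 0.19 for Grin1, but 0.71 for Grin2a and 1.02 for Grin2b.

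**Figure D5:**
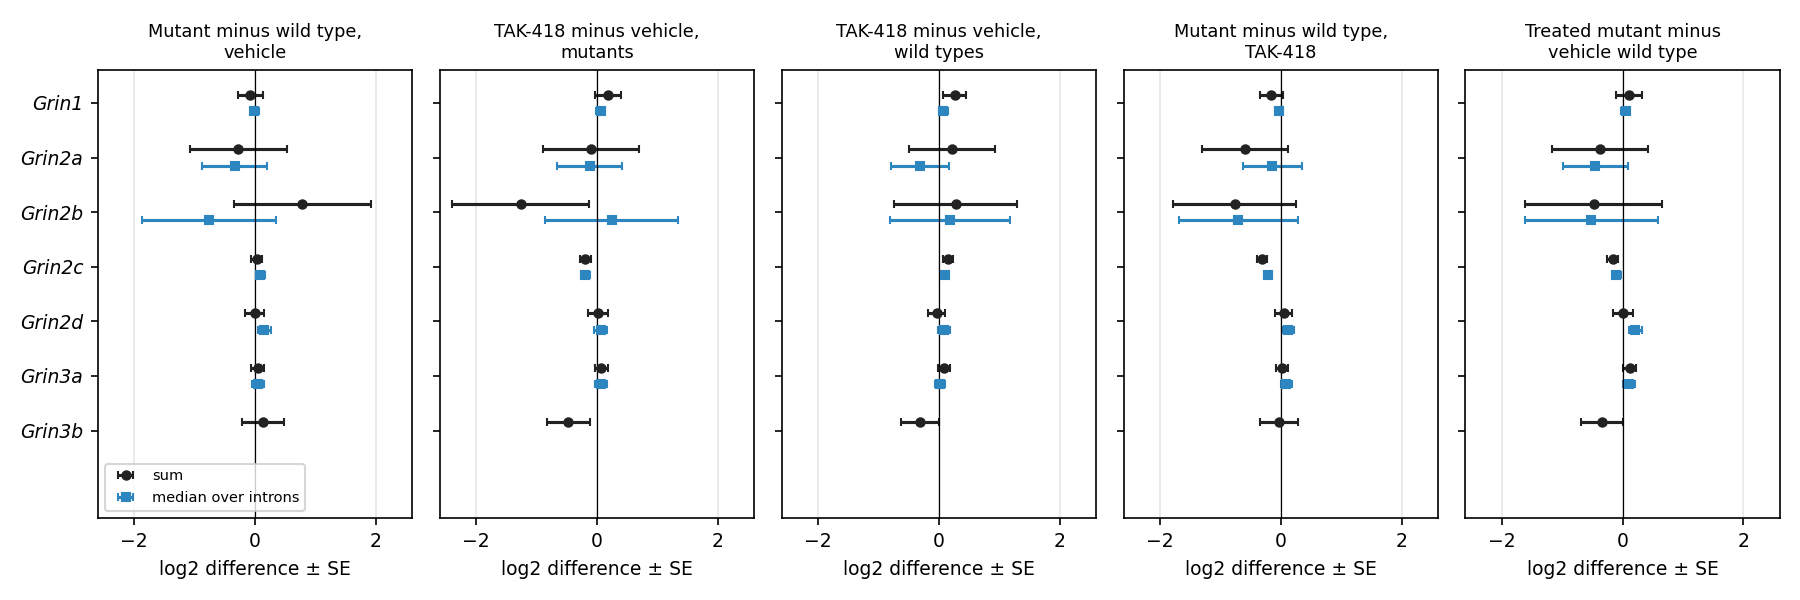
Log2 difference ± SE of each member in 5 contrasts from the limma fits, for summed values (black circles) and for intron-based values (blue squares, not fitted for Grin3b). Grin2a and Grin2b have wide errors, up to 1.14, and the Grin2c difference under TAK-418 is -0.32 ± 0.084 in the summed values.

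Genes that act with NMDA receptors were read in 4 lists, of 28 scaffold and signalling partners, 15 kinases and phosphatases, 15 genes of coagonist and glutamate supply and clearance, and 14 transcriptional regulators tied to the change from Grin2b to Grin2a. All were tested, and 0 were called in any of the 6 contrasts. At an unadjusted p of 0.05 the drug effect in wild types had 6 of 28 partners, 3 of 15 kinases and phosphatases, 0 of 15 supply genes and 1 of 14 regulators, beside 8.4% of all genes, the highest such share of the 6 contrasts. In the other 5 contrasts 1 to 3 of the 28 partners, 0 to 2 of the kinases and phosphatases, 0 or 1 of the supply genes and 0 or 1 of the regulators were past it. Median log2 differences in that contrast were 0.09, -0.00, 0.09 and 0.03 in the 4 lists, beside -0.00 over all genes. Of the supply genes 14 of 15 had a positive value there, beside 49.0% of all genes. In the other 5 contrasts 4 to 9 of the 15 were positive, beside 49.8% to 51.1% of all genes.

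Among the partners, the smallest p-values belonged to Dlg4, which encodes the scaffold PSD-95, and to Apba1, an adaptor in transport of receptor cargo. Dlg4 measured 283 ± 6.68 (SD, n = 3) in vehicle wild types and 313 ± 4.85 (SD, n = 5) in treated wild types, and 293 ± 12.3 (SD, n = 3) and 292 ± 5.66 (SD, n = 3) in vehicle and treated mutants. Its drug difference in wild types came to a log2 value of 0.15 ± 0.035 (SE), and limma gave an adjusted p of 0.286. For Apba1 that difference was 0.19 ± 0.05 (SE), with a limma adjusted p of 0.319. Src, a tyrosine kinase that phosphorylates GluN2 subunits, measured 40.6, 41.0 and 41.0 in vehicle wild types and 45.7 to 49.4 in treated wild types, at 0.20 ± 0.038 (SE) and an adjusted p of 0.188 by limma. Fyn, a kinase of the same family, differed by 0.13 ± 0.042 (SE) with an adjusted limma p of 0.426.

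Of the supply genes, Slc17a6, a vesicular glutamate transporter, had its smallest p in the interaction (0.63 ± 0.25 SE, limma adjusted p = 0.977), and Slc7a10, a transporter of D-serine and other small amino acids, in the genotype difference under TAK-418 (-0.23 ± 0.12 SE, limma adjusted p = 0.926). Of the regulators, Rcor2, a CoREST protein that partners LSD1, measured 7.39 ± 0.690 (SD, n = 3) in vehicle wild types and 9.77 ± 0.776 (SD, n = 5) in treated wild types. Its log2 difference was 0.37 ± 0.09 (SE) with an adjusted p of 0.286 by limma. Suz12, a subunit of Polycomb repressive complex 2, differed by 0.11 ± 0.051 (SE) with an adjusted limma p of 0.609. None of these differences passed the threshold.

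Over the 14 libraries, the genes whose summed values were most like those of Grin1 among 13267 genes listed in all libraries were Ptar1, Carmil3 and Prkd2, with Pearson r of 0.948, 0.938 and 0.935 and Spearman rho of 0.684, 0.587 and 0.477. Without the 2 libraries farthest from the Grin1 median, which include treated wild type replicate 1, r was 0.510, 0.630 and 0.685. For Grin2a they were Zfp780b, Gpc5 and Zim1 (r of 0.858, 0.815 and 0.806, rho of 0.758, 0.301 and 0.578, and r of 0.685, 0.204 and 0.659 without the 2 farthest libraries). For Grin2b they were Gtpbp8, Gxylt1 and Srsf1 (r of 0.806, 0.779 and 0.777, rho of 0.692, 0.798 and 0.732, and r of 0.894, 0.679 and 0.755 without the 2 farthest). These genes were chosen as the highest of all, so r describes them and carries no test.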

How the data were processed

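Hippocampal RNA was sequenced in 14 libraries. The authors aligned reads with TopHat2 2.1.0 after FastQC to mm10, per the submitters' processing notes, and assembled transcripts per library with CLASS 2.1.7, per the file headers. Each deposited transcript carries an abundance score, whose FPKM-like scale was worked out from the values. Relative depth was read from the spacing of low values. The authors' 4 deposited comparison tables hold 1 FPKM value per group, a log2 fold change, a p-value and a q-value, and a test score, in the column layout of Cuffdiff, per the file headers. The labels name 2 library kits for every sample, so the kit of a library is not known.

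Transcripts were assigned to GENCODE M21 genes (GRCm38) by shared introns, and single-exon transcripts by at least 50% overlap with exons. Abundances were summed per gene and scaled by the median of ratios over 13267 genes listed in all libraries. Genes listed in at least 3 libraries were fitted with limma 3.58.1 (R 4.3.3, lmFit and eBayes with trend) on log2(value + 0.873), where the pseudocount is the 10th percentile of values above 0, so fold changes of low genes are understated. The 4 group means entered 1 fit, with 6 contrasts and Benjamini-Hochberg adjustment over 16613 genes. The intron-based fit used 14692 genes and a pseudocount of 1.01. For single values the exact permutation test was used, two-sided. limma was tested on simulated data. Other steps ran in Python 3.11.15 with numpy 2.4.6, pandas 2.3.3 and matplotlib 3.10.9.

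The members, gene lists and tests were chosen with earlier results of these data known. The text names the 7 members with the contrast of their smallest unadjusted p, Kmt2d and Kdm1a, the 2 genes of each list with the smallest p since none was called, the most abundant gene of each marker list, and the 3 genes most like Grin1, Grin2a and Grin2b. Ttr, Gabra6, Barhl1, Aldoc, Nrgn and Xist are given as markers. Other pseudocounts, filters, scalings, subsets of transcripts and libraries were tried as alternatives. The intron-based scale, the share of the last Grin1 acceptor, the test of the difference between drug effects and the exon shares without the libraries highest in Ttr were added after the data were examined.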

Additional observations from a re-analysis of the deposited data

Results flagged for a closer look

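In the group of 5 treated wild types, 4 of 17 measures had 1 library farther from the others than Dixon's test allows. For 1 measure chance gives about 1 in 20. The 17 measures share genes and the same 5 libraries, so that rate cannot be set against their count. The Grin1 summed abundance of replicate 1 was 389.7, and the next value was 219. The Grin2d summed abundance of the same library was 5.51, with the next at 4.48. In replicate 4, Grin2a stood at 138 with the next at 43.0, and Grin3a at 12.2 with the next at 9.77. Replicate 1 is the deepest library, and none of the 4 was so far from the others on the intron-based scale. Whether depth has a part in it was not tested.

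For the N1 exon share of Grin1, the mean of treated minus vehicle libraries had opposite signs in the 2 genotypes, and the difference between these values, mutants minus wild types, was 9.15 percentage points (exact permutation p = 0.00357, adjusted 0.0143 over 4 measures). The pattern was seen before this test was chosen, no single contrast passed its own adjustment, and treated and vehicle wild types overlapped. The permutations assume no drug effect in either genotype, so the p is not a test of equal drug effects.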

How the results depend on the processing

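The count of members called and the count of list genes called were 0 in all 6 contrasts under every alternative run, so no call depended on a setting. Signs of differences that had not passed a test did change. For the log2 change of Grin2b with the drug in mutants, multi-exon transcripts alone gave 0.25 and the intron-based scale 0.24, and for Grin2d under TAK-418 no scaling gave -0.0286.

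For the Grin2b to Grin2a ratio, the highest transcript alone gave -0.0861 for the drug in wild types and 0.0458 for genotype under TAK-418. Without vehicle wild type replicate 3 and vehicle mutant replicate 1, the libraries highest in Ttr, genotype under vehicle was -0.40 and the drug in wild types -1.31. The intron-based scale gave -0.49 for genotype under vehicle and 0.41 for the drug in mutants, and the authors' group values from the deposited tables gave -0.0580 for genotype under vehicle and 0.00445 for treated mutants against the wild types on vehicle. Those values add both Grin2a loci, and with the own-strand locus alone, an alternative added after the data were examined, they were -0.20 and -0.11. Leaving out 1 library gave -0.31 to 2.16 for genotype under vehicle, -1.31 to 0.83 for the drug in wild types, -1.52 to 0.61 for treated mutants compared with wild types on vehicle, and -1.01 to 0.54 for genotype under TAK-418.

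For the Grin3a to Grin1 ratio, the highest transcript alone gave -0.0136 for genotype under vehicle and 0.30 for the drug in mutants, the intron-based scale 0.0101 for the drug in mutants, and leaving out the libraries highest in Ttr -0.0732 for treated mutants against vehicle wild types. Leaving out 1 library gave -0.29 to 0.0272 for the drug in wild types, -0.0732 to 0.10 for treated mutants compared with wild types on vehicle, and -0.00500 to 0.31 for genotype under TAK-418.

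For the N1 share, leaving out 1 library gave -1.62 to 0.12 points for treated mutants compared with wild types on vehicle. For the C1 share the libraries highest in Ttr left 0.35 points for genotype under vehicle, and leaving out 1 library gave -7.66 to 1.73 for genotype under vehicle, -43.7 to 1.203 for the drug in mutants and -39.6 to 5.38 for genotype under TAK-418. The cause of these sign changes was not tested. No paired analysis was possible because the labels carry no replicate numbers, and those used here only name the libraries of a group in the order of their deposit. Reads per gene are not known for these values, so no counting interval could be given.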
